A study of Mus musculus with 89 samples.

Results

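Among single cells of the mouse dentate gyrus that the authors classed as aNSC, a small group carries transcripts of the oligodendrocyte lineage, and this group is set here against the cells classed as IPC. The members were chosen by their measured values: cells of class aNSC with 10 or more counts of Pdgfra, which gave 7 cells, and all cells of class IPC, which gave 11 cells, so that 18 of the 89 cells of the series were compared. The classes are read here as activated neural stem cell (aNSC), intermediate progenitor cell (IPC) and quiescent neural stem cell (qNSC), and how the authors assigned them is not stated in the sources used here. Pdgfra split the aNSC class without intermediate cells. The lowest member had 531 Pdgfra counts, while the highest of the other 11 aNSC, 11 IPC and 60 qNSC cells had 1 count, found in 3 cells.

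All cells came from the dissected dentate gyrus of homozygous Nestin:CFPnuc mice, labelled as strain C57BL/6, in which the Nestin promoter drives a nuclear cyan fluorescent protein. Each sample is 1 viable sorted cell, made into its own library with the SMART-Seq v4 and Nextera XT kits. Mice were 2 or 4.5 months old. The Pdgfra cells are named P1 to P4 (2 months) and P5 to P7 (4.5 months), and the IPC cells I1 to I5 (2 months) and I6 to I11 (4.5 months). No treatment is labelled, and no label names the animal of a cell, so each group counts as 1 sample and the cells are not replicates of it. No p-value or standard error is therefore given. The SD values describe the spread over cells. The reporter limits the sample to cells in which that promoter was or had been active, so neither group stands for all cells of its kind in the tissue.

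Total counts ran from 723448 to 1597526 in the Pdgfra cells and from 312948 to 1394939 in the IPC cells. Reads covered 4484 to 6046 genes per Pdgfra cell and 3079 to 5504 per IPC cell. Thinned to 312948 counts, the depth of the shallowest cell (I3), the medians were 4560 and 4275 genes. No pair of the 18 cells looked like a library deposited again. Across the genes measured in the comparison, the log2(CPM + 1) values of any 2 cells correlated at 0.268 to 0.396 among the Pdgfra cells, at 0.261 to 0.443 among IPC and at 0.169 to 0.322 between the groups, given as a description over genes of separate libraries.

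As background, oligodendrocyte precursor cells (OPC) express the receptor for platelet-derived growth factor (PDGF), whose ligand keeps them dividing, together with the transcription factors OLIG1, OLIG2 and SOX10, and they give rise to myelinating oligodendrocytes. Intermediate progenitors of the dentate gyrus descend from radial glia-like stem cells, express the T-box factor EOMES (TBR2) and proneural factors such as NEUROG2, and give rise to granule neurons. Receptor tyrosine kinases such as PDGFRA signal through RAS and ERK, which switch on ETS factors and feedback inhibitors of the pathway.

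Levels are given as counts per 1000000 counts (CPM). A difference is the mean log2(CPM + 1) of the 7 Pdgfra cells minus that of the 11 IPC cells, so a negative value means higher in IPC. This scale understates the change of low genes. Of 24411 genes, 9520 were detected in 20% or more of the Pdgfra cells or of the IPC cells and are referred to as measured. A gene is called when the difference reaches 2, the ratio of CPM summed over each group reaches 2, and the difference reaches 1 in the same direction at each age. By this rule 1163 of the measured genes (12.2%) were called higher in the Pdgfra cells and 829 (8.71%) higher in IPC. Every count of called genes in a list below is to be read beside these shares. The cells of the groups did not overlap for 80 genes higher in the Pdgfra cells (0.84%) and for 10 higher in IPC (0.105%). The median difference over all measured genes was 0.30. Because Pdgfra and the classes chose the cells, all the differences describe these cells and test nothing.

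The defining genes of the contrast are Pdgfra (chr5:75152292-75198215 in mm10, plus strand) and Eomes (chr9:118478212-118486132, plus strand). These positions are from GENCODE. The 250 bases upstream of the start site in RefSeq, which lies slightly before the GENCODE start for both genes, are shown because the division of the cells runs along these genes and along basic helix-loop-helix (bHLH) factors of the OLIG and NEUROG families, which as a family bind E-box sequences. Sequences are from RefSeq on GRCm38.p6, written 5′ to 3′ on the gene's strand, with each match to the E-box letters CANNTG in capitals. The table held promoters of 176 of the 234 named genes. Sox10 is named only.

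Pdgfra promoter, chr5:75152001-75152250 (plus strand): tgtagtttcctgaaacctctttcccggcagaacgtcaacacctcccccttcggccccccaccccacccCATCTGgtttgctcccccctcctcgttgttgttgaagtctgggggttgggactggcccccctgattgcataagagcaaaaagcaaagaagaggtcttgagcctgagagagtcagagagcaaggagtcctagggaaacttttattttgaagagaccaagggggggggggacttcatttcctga

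Eomes promoter, chr9:118477939-118478188 (plus strand): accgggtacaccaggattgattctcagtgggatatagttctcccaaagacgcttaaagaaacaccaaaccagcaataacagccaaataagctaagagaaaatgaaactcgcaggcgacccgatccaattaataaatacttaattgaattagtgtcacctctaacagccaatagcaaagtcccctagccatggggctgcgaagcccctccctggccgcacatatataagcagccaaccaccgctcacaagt

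The Pdgfra stretch held 1 E-box, CATCTG, and the Eomes stretch held 0. CANNTG, which reads the same in pattern on both strands, was found in 66.0% of the 27025 promoter stretches of this length. The share was 60.8% of 885 among genes called higher in the Pdgfra cells and 53.0% of 636 among those called higher in IPC, beside 55.1% of 7305 measured genes. A match describes letters only, and its absence from this stretch says nothing about binding.

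Pdgfra ranged from 644 to 2299 CPM in the 7 Pdgfra cells, with a median of 887, and had no read in the 11 IPC cells. These values chose the cells. Olig1, a bHLH factor of the oligodendrocyte lineage (chr16:91269772-91271933, plus strand), ranged from 3681 to 10245 CPM with a median of 5222, and in IPC from 0 to 1186 with a median of 0. All 7 Pdgfra cells lay above all 11 IPC cells, and the difference was 11.18, the largest of all measured genes. Only I10 among the IPC cells had 10 or more Olig1 counts. Per length, the median Olig1 level was 4436 TPM (transcripts per 1000000 transcripts) in the Pdgfra cells, beside 205 TPM for Pdgfra and 213 TPM for Sox10.

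Eomes, the T-box factor of intermediate progenitors, had no read in the 7 Pdgfra cells. A count of 0 of 7 cells allows a share of up to 41.0% (exact Clopper-Pearson 95% interval), which covers the counting of cells only and not how animals vary. In IPC it ranged from 0 to 438 CPM with a median of 113, and 7 of 11 cells had 10 or more counts. The 4 without were I1, I2, I5 and I10. The Eomes difference was -4.92. Sox11, a SOX factor of neuronal progenitors and newborn neurons (chr12:27334264-27342574, minus strand), ranged from 0 to 21.6 CPM in the Pdgfra cells and from 1.91 to 1537 CPM in IPC, with medians of 4.24 and 185. The groups overlapped in Sox11 through I4 alone, the IPC cell at 1.91 CPM, and the difference was -5.21.

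**Figure D1:**
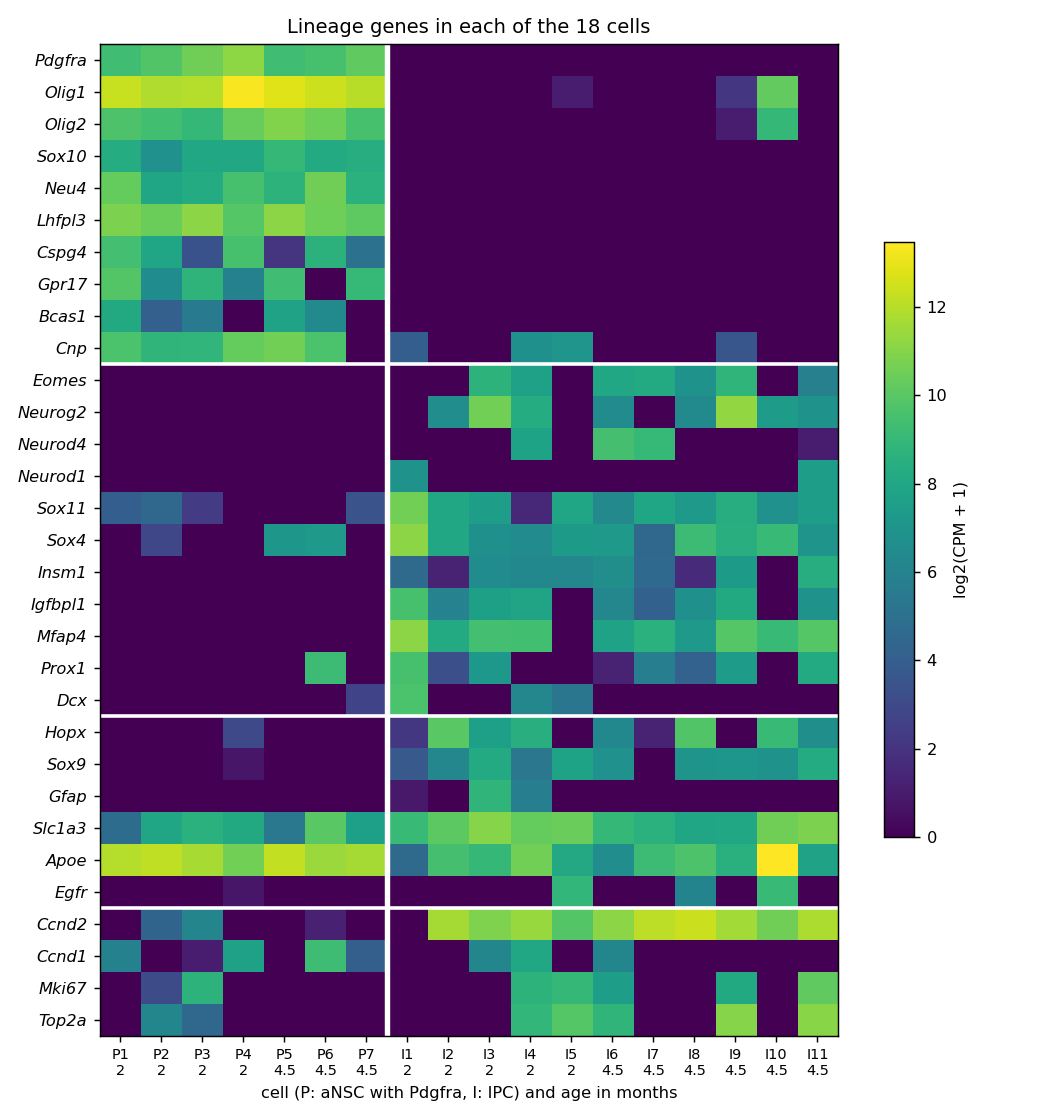
Log2(CPM + 1), as colour, of 31 lineage genes (rows) in each of the 18 cells (columns, with age in months). Olig1, Olig2, Sox10, Neu4 and Lhfpl3 are bright in all of P1 to P7, Eomes and Neurog2 are dark there, and I10 stands out among the IPC cells by Olig1, Olig2 and Apoe.

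The label of the Pdgfra cells was compared with marker lists. These were drawn up with earlier results of these data known, so the comparison describes the cells and is no independent check. The OPC list holds 20 genes, of which Pdgfra was left out here because it chose the cells. Of the other 19, between 16 and 18 had 10 or more counts in each Pdgfra cell, and 0 to 5 in each IPC cell. After thinning to equal depth these ranges were 16 to 17 and 0 to 5. By this description the cells are called oligodendrocyte-precursor-like here, although their deposited class is aNSC. Stem cell genes were mixed in them. Of the 20 genes of the quiescent stem cell and radial glia list, 8 to 13 had 10 counts in each Pdgfra cell and 6 to 16 in each IPC cell. Their summed level was 5420 to 11746 CPM (median 8137) in the Pdgfra cells and 936 to 17473 CPM (median 4660) in IPC, and the groups overlapped. Fabp7, a fatty acid binding protein of radial glia, and Apoe had 10 counts in all 7. Nes (nestin) had no read in any of the 7, nor had Gfap, the filament protein of radial glia-like cells. Hopx, a homeodomain gene of dentate stem cells, reached at most 6.77 CPM, and Sox9, a glial SOX factor, at most 0.752 CPM. Among IPC, Nes was read only in I3 (23 counts), and Gfap had 10 counts only in I3 and I4. The absence of Nes and Gfap is therefore not particular to the Pdgfra cells. In the other 11 aNSC cells, which the rule separated by Pdgfra, 1 to 5 of the 19 genes had 10 counts. None of them had 10 counts of Sox10, and 2 had 10 counts of Olig1 and of Olig2. In qNSC, 23 of 60 cells had 10 or more Olig1 counts, but none had as many of Sox10.

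All 20 OPC genes were called higher in the Pdgfra cells, and for 13 of them the groups did not overlap. Without Pdgfra, whose value chose the cells, these counts were 19 and 12. The median difference was 7.23 with Pdgfra and 7.06 without it, beside 0.30 over all measured genes. Sox10, the SOX factor of the whole oligodendrocyte lineage, ranged from 109 to 489 CPM around a median of 300 and was not read in IPC. The summed CPM was at least 1022-fold higher, against a floor of 3 counts over the IPC cells. Olig2, the partner of Olig1, ranged from 506 to 1941 CPM with a median of 844, and reached 489 CPM in I10 and at most 1.11 in the other IPC cells, so the groups did not overlap.

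Surface and secreted genes of OPC followed the same division. Serpine2, a secreted inhibitor of serine proteases, was at 3845 to 8097 CPM (median 4584) in the Pdgfra cells and at 0 to 255 in IPC, a difference of 10.82. Neu4, a sialidase, was at 247 to 1476 CPM (median 419) with no read in IPC. C1ql1, a secreted C1q-like protein, was at 462 to 1066 CPM (median 545), and 1 IPC cell had 45 CPM. The 3 genes showed no overlap between the groups. Lhfpl3, a tetraspan membrane protein, was also separated, at 950 to 2232 CPM (median 1442) and without a read in IPC. It shares exon sequence with A930003O13Rik.

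Other OPC genes varied from cell to cell within the Pdgfra group. Cspg4, the NG2 proteoglycan, ranged from 3.17 to 732 CPM (median 246) and was not read in IPC. It was under 10 counts in 2 of the 7 cells. Susd5 reached 10 counts in 3 of 7 cells and Nkx2-2, a homeodomain factor of the lineage, in 2 of 7, both without a read in IPC. Sox8, a relative of Sox10, was at 42.3 to 535 CPM (median 213) and overlapped with IPC, where 5 of 11 cells had 10 counts. Its difference was 7.07 at 2 months and 2.30 at 4.5 months.

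The 15 genes with the largest called differences were named for their size, and some of them stand in no list. Of these, Cdo1 (cysteine dioxygenase), Nxph1 (a secreted neurexin ligand), Rgcc, a cell cycle regulator, and Ramp1, a receptor activity-modifying protein, had no read in the 11 IPC cells. Their medians in the Pdgfra cells were 955, 673, 777 and 647 CPM. Tmem100 was at 608 to 1556 CPM (median 1174), and 1 IPC cell had 244. Tmem176b was at 368 to 1178 CPM and shares exon sequence with Tmem176a, so its reads cannot be assigned with certainty. The same holds for Lims2 of the OPC list (304 to 1102 CPM), which shares exons with Gpr17, and for Pdgfra itself, which shares exon sequence with the microRNA gene Mir7025, because libraries of this kit carry no strand information.

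Genes of later oligodendrocyte stages were present in part. Of 15 genes of committed precursors 11 were measured, 6 were called higher in the Pdgfra cells and 0 in IPC, with a median difference of 3.08. Gpr17, a receptor that marks OPC about to differentiate, was at 0 to 931 CPM (median 424), with 10 counts in 6 of 7 cells and no read in IPC. It is also 1 of the 20 OPC genes and is counted in both lists. Bcas1, a gene of early myelinating cells, had 10 counts in 5 of 7 cells and no read in IPC, with a median of 46.7 CPM. Bmp4 and Enpp6, both of committed precursors, were not read in any of the 18 cells.

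Of 19 myelin genes 15 were measured and 6 were called higher in the Pdgfra cells, with a median difference of 1.39. Cnp, a myelin enzyme that is also expressed before myelination, was at 0 to 1537 CPM (median 788) in the Pdgfra cells and at 0 to 131 in IPC, overlapping through P7, where it was not read. Ugt8a, an enzyme of myelin lipid synthesis, had 10 counts in 4 of 7 Pdgfra cells and at most 1.11 CPM in IPC, with a difference of 4.14. Gjc3, a connexin of oligodendrocytes, was at 27.9 to 652 CPM (median 385) and not read in IPC, so it was separated.

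Genes of the compact sheath were low. Mog (myelin oligodendrocyte glycoprotein) reached at most 5.01 CPM and Opalin at most 9.01 CPM, and Cldn11 had no read. P1 had 10 or more counts of 12 myelin genes, against 4 to 7 in the other Pdgfra cells and 0 to 5 in IPC. After thinning, P1 had 7 and the other Pdgfra cells 4 to 6. In P1, Mag, Mobp and Mal were at 18, 11 and 22 CPM. Whether RNA of other cells has a part in these low values was not tested.

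Neuronal progenitor genes showed the opposite division. Of 20 genes of the neuronal IPC list 17 were measured, and 16 were called higher in IPC and 0 in the Pdgfra cells, with a median difference of -4.33. Each IPC cell had 10 counts of 5 to 15 of them and each Pdgfra cell of 1 to 4. Thinned, the ranges were 5 to 15 and 0 to 4. Neurog2, the proneural bHLH factor upstream of Eomes, was not read in the Pdgfra cells and ranged from 0 to 2451 CPM (median 95.3) in IPC, with 10 counts in 8 of 11 cells. The Neurog2 difference was -5.80.

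Mfap4 had the largest difference of the neuronal IPC list, -8.25: it was not read in the Pdgfra cells and had a median of 542 CPM and 10 counts in 10 of 11 IPC cells. It shares exon sequence with Mapk7. Igfbpl1, an insulin-like growth factor binding protein-like gene of immature neurons, and Insm1, a zinc finger factor of basal progenitors, were not read in the Pdgfra cells and had 10 counts in 9 and 8 IPC cells. Sox4, a relative of Sox11, was at 21.7 to 2180 CPM (median 161) in IPC. It was at 0 in 4 of the 7 Pdgfra cells and reached 151 CPM in the highest. Neurod1, a later proneural factor, had 10 counts in 2 IPC cells and in none of the Pdgfra cells.

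Later neuronal genes did not divide the groups in the same way. Of 20 neuroblast genes 16 were measured, 5 were called higher in IPC and 2 in the Pdgfra cells, with a median difference of -1.38. Among genes detected in 50% or more of either group, that median was 0.78. Stmn1, a regulator of microtubules, was at 2724 to 8256 CPM (median 5256) in IPC and at 10.0 to 1344 CPM (median 170) in the Pdgfra cells, without overlap. Dcx (doublecortin) had 10 counts in 3 IPC cells, I1, I4 and I5, and in none of the Pdgfra cells. Ncam1, an adhesion molecule also expressed by OPC, and Gap43, a growth cone protein, were the 2 called higher in the Pdgfra cells, with differences of 2.70 and 3.32. Calb2 (calretinin) had 10 counts in 5 of 7 Pdgfra cells, at most 255 CPM, and among IPC only in I1, at 542 CPM.

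The IPC class was itself mixed. I10 had 5 of the 20 OPC genes and 5 of the 20 neuronal IPC genes. It had 1314 counts of Olig1, 542 of Olig2, 540 of Gsx1 and 625 of Egfr, beside 183 of Neurog2 and none of Eomes, Pdgfra or Sox10. Its Apoe level, 11232 CPM, was the highest of the 18 cells. Gsx1 also had 397, 53, 225 and 9 counts in P1, P3, P5 and P6. The other Pdgfra cells and the other IPC cells had no read of it. I5 had no count of Eomes or Neurog2, but 64 of Dlx1, 152 of Dlx2 and 445 of Egfr. Dlx1 and Dlx2 are homeobox factors of interneuron lineages, and the other 17 cells had no read of them. I1 had 909 counts of Dcx, 616 of Calb2 and 136 of Neurod1, 17 of the 20 neuroblast genes, and no count of Ccnd2. Egfr, Dlx1 and Dlx2 were singled out in these cells after their values were seen. Restricted to the 7 IPC cells with Eomes, 1226 genes were called higher in the Pdgfra cells, 950 of them shared with the comparison of all IPC cells, and 909 higher in IPC, 619 of them shared.

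Markers of other cell types were few. No cell had 10 counts of more than 2 of 10 endothelial, 2 of 10 mural, 1 of 10 microglial, 3 of 10 mature neuron or 1 of 8 ependymal genes, and none of the 5 red blood cell genes. Apart from Pdgfra, which the vascular leptomeningeal list also holds, that list had 10 counts of at most 1 further gene, in P5. Summed over the list, endothelial genes were at 0 to 73.3 CPM in the Pdgfra cells and 0 to 81.3 in IPC. Microglial genes summed to 0 to 429 CPM and 0 to 218 CPM. Mural genes summed to 5.29 to 735 CPM in the Pdgfra cells and to 0 to 38.3 in IPC, where Cspg4, which OPC share, was not read.

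Astrocyte and radial glia genes were divided between the groups gene by gene. Of 13 measured astrocyte genes 4 were called higher in the Pdgfra cells and 1 in IPC. S100b, a calcium-binding protein of astrocytes and the oligodendrocyte lineage, was at 262 to 835 CPM (median 350) in the Pdgfra cells and not read in IPC. Aldh1l1, an astrocyte enzyme, was not read in any cell. Gja1 (connexin 43) was at most 2.76 CPM in the Pdgfra cells and had 10 counts in 5 IPC cells, a difference of -2.89.

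Of 19 measured quiescent stem cell and radial glia genes, 5 were called in each direction, with a median of -0.10. Ednrb, the endothelin B receptor, was at 441 to 1652 CPM (median 879) in the Pdgfra cells, and 1 IPC cell had 283, a difference of 9.08 without overlap. Clu, Aldoc, Sparcl1 and Fabp7 were the other 4 called higher in the Pdgfra cells, with differences of 6.79, 5.20, 4.10 and 2.46. Thrsp, Sox9, Hopx and Slc1a3 were among those called higher in IPC, with differences of -6.32, -6.00, -5.17 and -2.13. Sox9 had 10 counts in 10 of 11 IPC cells, with a median of 116 CPM.

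Within transcription factor families, members stood on opposite sides. Of 12 measured SOX genes 5 were called higher in the Pdgfra cells and 4 in IPC. Sox10, Sox6 and Sox8 had differences of 8.11, 4.74 and 4.62, while Sox9, Sox4 and Sox11 had -6.00, -5.28 and -5.21. Sox2, expressed by stem cells and OPC alike, differed by only -0.10. Of 23 measured bHLH, ID and NFI genes 5 were called higher in the Pdgfra cells and 7 in IPC, with Olig1 and Olig2 on one side and Neurog2 and Hes6 on the other. Nfib, a nuclear factor I gene, was at 558 to 2021 CPM in IPC and at 0 to 482 in the Pdgfra cells, without overlap.

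Of 18 measured regional and homeobox factors 7 were called higher in IPC and 2 in the Pdgfra cells. Lhx2 and Emx2, factors of the dorsal telencephalon, had 10 counts in 10 and 9 of the 11 IPC cells, and differences of -4.34 and -3.95. In the Pdgfra cells they had 10 counts in 3 and 1 of 7. Prox1, the granule neuron factor, had 10 counts in 7 IPC cells and in P6 alone of the Pdgfra cells, at 605 CPM.

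Of the 8 genes of the list of PDGF ligands and receptors, Pdgfra alone was called. Pdgfrb, the receptor of mural cells, had at most 1.91 CPM in any of the 18 cells. The ligand gene Pdgfa had 10 counts in 1 cell of each group, Pdgfb had no more than 1.38 CPM, and Pdgfc and Pdgfd had no read. Of 21 measured genes of the relay from receptor kinases, 4 were called higher in the Pdgfra cells and 2 in IPC. The median of this list was 0.32, beside 0.30 over all measured genes, of which 12.2% and 8.71% were called. Hras and Map2k1, of the RAS to ERK relay, had differences of 2.86 and 2.67, and Pik3r1, a regulatory subunit of PI3 kinase, 3.13. Akt2, a kinase downstream of PI3 kinase, was not read in the Pdgfra cells and had 10 counts in 5 of 11 IPC cells.

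The targets and feedback genes of ERK were called in both directions. Of 16 measured genes 7 were called higher in the Pdgfra cells and 2 in IPC, with a median difference of 1.91. Spry1, a feedback inhibitor of receptor kinase signalling, was at 107 to 775 CPM (median 282) in the Pdgfra cells, and Etv5, an ETS factor, at 147 to 436 CPM (median 241). Both were present in all 7 cells and had no read in the 11 IPC cells, with differences of 8.02 and 7.86.

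Dusp6, a phosphatase that acts on ERK, had 10 counts in 5 of 7 Pdgfra cells and 1 of 11 IPC cells (medians 64.7 and 0 CPM), and a difference of 4.54. The remaining 4 called higher in the Pdgfra cells were Spred1, Etv1, Etv4 and Spry4, with differences of 4.46, 3.94, 2.61 and 2.38, named after their values were seen. The 2 called higher in IPC were the immediate early genes Fos and Egr1. Junb and Fosb, of the same kind and added after their values were seen, were not called, with differences of 0.37 and -1.85. Fos was at 0 to 6256 CPM (median 787) with 10 counts in 10 of 11 IPC cells. In the Pdgfra cells it had a median of 0 and 10 counts in 2 of 7 (P2 and P6, at 952 and 1800 CPM). Egr1 was at 0 to 5453 CPM (median 925) in IPC and at 0 to 112 CPM (median 1.38) in the Pdgfra cells. Their differences were -6.14 and -5.55, and both groups overlapped in each.

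**Figure D2:**
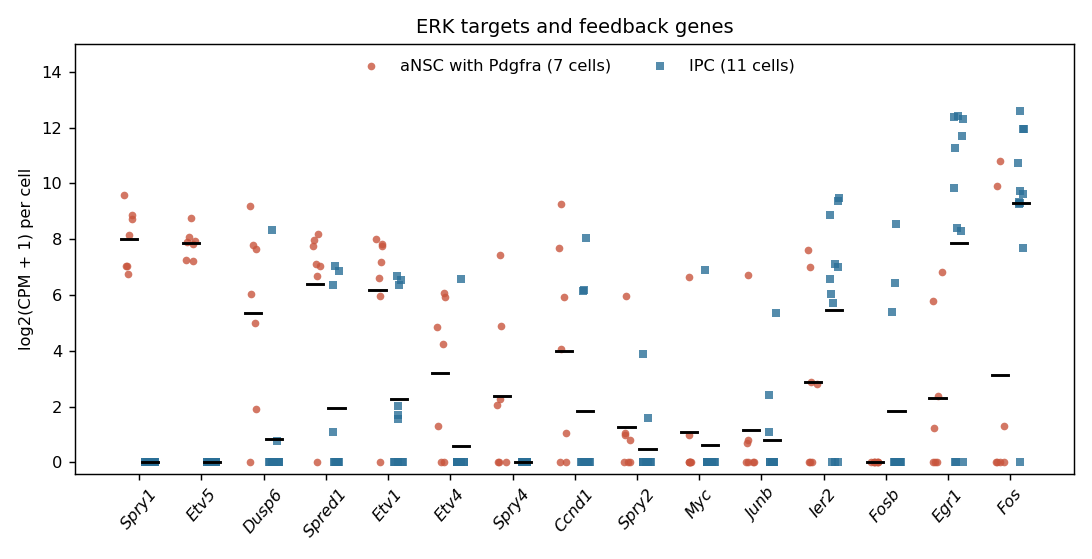
Log2(CPM + 1) of 15 ERK targets and feedback genes in each cell, with circles for the 7 Pdgfra cells, squares for the 11 IPC cells and bars for group means. Spry1 and Etv5 are above 0 in all 7 Pdgfra cells and at 0 in the 11 IPC cells, whereas Fos and Egr1 are higher in most IPC cells.

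Of 14 other measured growth factor receptor genes, 4 were called higher in the Pdgfra cells and 1 in IPC. Lifr (leukaemia inhibitory factor receptor), Ntrk3 (neurotrophin-3 receptor) and Kit had no read in IPC and differences of 4.69, 3.68 and 2.57. Ntrk2, the receptor for brain-derived neurotrophic factor, was at 5.53 to 840 CPM (median 468) in the Pdgfra cells and at 0 to 412 (median 2.64) in IPC. Egfr was called higher in IPC, where 3 cells (I5, I8 and I10) had 10 counts.

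Of 15 measured Notch genes, 3 were called in each direction, with a median difference of 0.88 beside 0.30 over all measured genes. Hes6, which opposes HES1 and promotes neuronal differentiation, had 10 counts in 10 of 11 IPC cells, with a median of 829 CPM, and in 1 of 7 Pdgfra cells, a difference of -7.73. Dll3, a divergent Notch ligand, had -3.45 and Mfng, a modifier of Notch, -2.88. Nrarp, a feedback target of Notch, was at 0 to 244 CPM (median 93.9) in the Pdgfra cells and at 0 to 230 (median 0) in IPC, a difference of 3.66.

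Proteoglycan and matrix genes were higher in the Pdgfra cells as a group. Of 24 genes 16 were measured, 11 were called higher in the Pdgfra cells and 0 in IPC, with a median difference of 4.41. Cspg5 (neuroglycan C) was at 2442 to 4306 CPM (median 2727) and Bcan (brevican, of perineuronal matrix) at 426 to 3069 CPM (median 2006). In IPC 1 cell each had 10 counts, with 546 and 75.8 CPM. Sulf2, which removes sulphate from heparan sulphate, and Gpc5, a glypican, were also without overlap, with differences of 7.80 and 6.70. The list shares Cspg4 and Xylt1 with the OPC list.

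Receptors and channels for transmitters were likewise higher. Of 30 measured genes 17 were called higher in the Pdgfra cells and 1 in IPC, with a median difference of 2.84. Gria3 and Gria4, subunits of AMPA glutamate receptors, had 10 counts in 5 of 7 Pdgfra cells each. Gria3 was not read in IPC and Gria4 reached at most 9.31 CPM there. Gabra3, a GABA-A receptor subunit, had 10 counts in 5 of 7 cells and no read in IPC, with a difference of 5.72. Kcnj16, an inward rectifier potassium channel, had a difference of 8.88 at 2 months and 3.30 at 4.5 months.

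Of 22 measured guidance and adhesion receptors 8 were called higher in the Pdgfra cells and 2 in IPC. Cntn1 (contactin 1) was at 420 to 2427 CPM (median 1365) and at most 1.11 CPM in IPC. Nlgn1 (neuroligin 1), Cadm2 and Epha5 had differences of 5.20, 5.55 and 4.95, whereas Epha4, an ephrin receptor, was not read in the Pdgfra cells and had 10 counts in 8 of 11 IPC cells, a difference of -5.52.

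**Figure D3:**
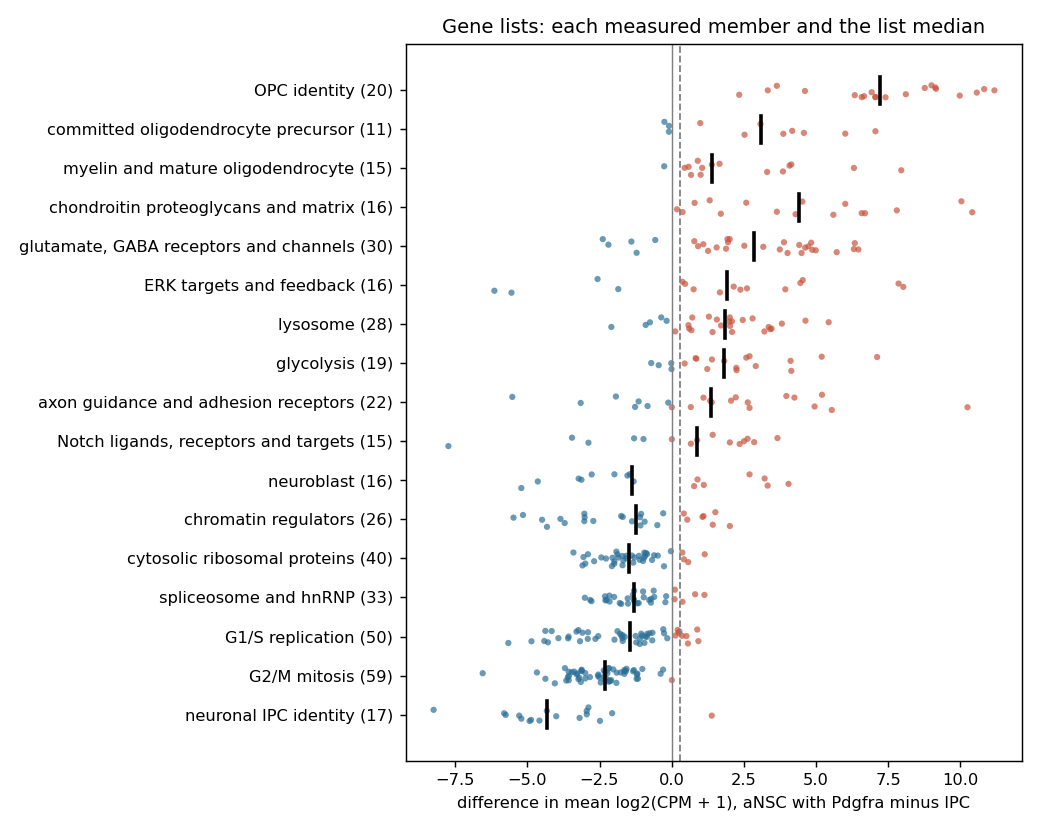
Difference in mean log2(CPM + 1) of each measured member (points, red above 0 and blue below) of 17 gene lists, with the number measured in brackets, black bars for list medians and a dashed line for the median of all measured genes, 0.30. OPC genes (median 7.23) and neuronal IPC genes (median -4.33) form the ends of the range.

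Genes of division were called higher in IPC alone, but dividing cells were present in both groups. Of 50 measured genes of DNA replication (G1/S) 13 were called higher in IPC and 0 in the Pdgfra cells, and of 59 measured mitosis (G2/M) genes 29 and 0. The median differences were -1.44 and -2.31. P2 and P3, both of 2 months, had 10 counts of 48 and 47 of 51 replication genes, and of 34 and 30 of 63 mitosis genes. The other 5 Pdgfra cells had 5 to 14 and 0 to 4. In IPC, I4, I5, I6, I9 and I11 had 27 to 48 replication genes and 35 to 62 mitosis genes, and the other 6 cells had 9 to 33 and 3 to 9. Thinned, P2 and P3 kept 48 and 47 replication genes and 31 and 28 mitosis genes.

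By these counts 2 of 7 Pdgfra cells (exact 95% interval 3.67% to 71.0%) and 5 of 11 IPC cells (16.7% to 76.6%) had at least 20 mitosis genes. The intervals cover the counting of cells only, and the shares were not tested against each other. Without these 7 cells, which are called dividing here, the median difference was 0 for mitosis genes and -1.31 for replication genes. I3 and I7 stayed in with 33 and 26 replication genes, so these medians do not describe cells outside the cycle. The 7 cells were picked by this same mitosis list, so the mitosis median without them was largely set by the selection. Mki67, a marker of cycling cells, reached 420 CPM in P3 and 7.61 in P2. Top2a, a topoisomerase of late cycle phases, was at 72.3 CPM in P2 and 21.2 in P3, and at 440 to 2115 CPM in the 5 dividing IPC cells. Both genes were chosen after their values were seen.

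**Figure D4:**
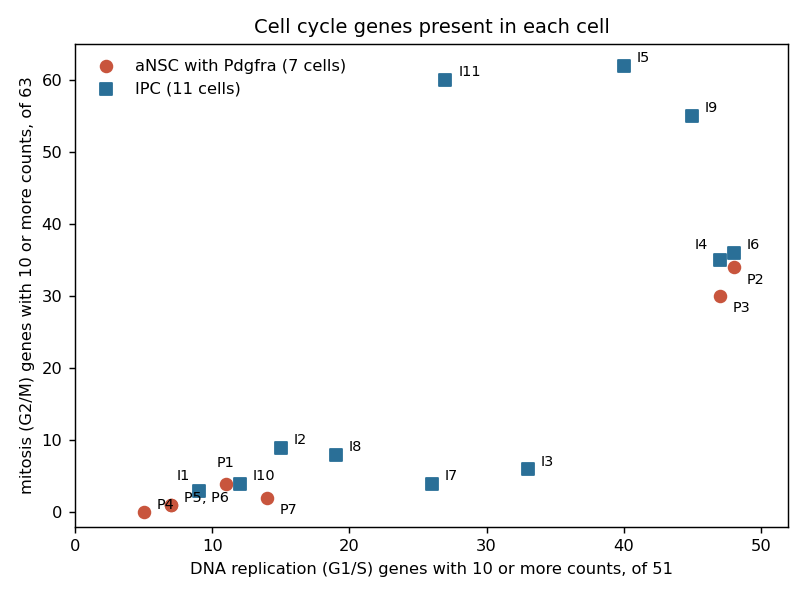
Number of replication genes (x axis, of 51) and mitosis genes (y axis, of 63) with 10 or more counts in each cell, with circles for the 7 Pdgfra cells and squares for the 11 IPC cells. P2 and P3 lie beside I4 and I6, and I5, I9 and I11 have 55 to 62 mitosis genes.

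Of the D-type cyclins, which start the cycle, Ccnd2 was called higher in IPC. It was at 933 to 5264 CPM in 10 of the 11 IPC cells and not read in I1, whereas the Pdgfra cells had 0 to 67.9 CPM, with the highest values in the dividing cells P2 and P3. Its difference was -8.62. It shares exon sequence with 9330179D12Rik. Ccnd1 had 10 counts in 4 of 7 Pdgfra cells (median 15.6 CPM) and in 3 of 11 IPC cells (median 0), a difference of 2.15 that was not called, since it was 0.83 at 2 months. Ccnd3, added after its values were seen, had 174 to 331 counts in P1, P3, P4, P5 and P7. It had 6 and 1 counts in P2 and P6, and 0 to 261 in the IPC cells. Cdk6, a partner of D-type cyclins, was not read in the Pdgfra cells and had 10 counts in 7 IPC cells. Gadd45g, a stress and differentiation gene, had the largest difference towards IPC, -9.11, with 31.8 to 3768 CPM (median 757) in IPC and at most 0.752 in the Pdgfra cells.

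Chromatin and RNA genes leaned towards IPC. Of 26 measured chromatin regulators 9 were called higher in IPC and 0 in the Pdgfra cells. Hmgn2, a nucleosome-binding protein, was at 1439 to 30268 CPM (median 13587) in IPC and at 196 to 1212 CPM (median 458) in the Pdgfra cells, without overlap. Ezh2, the methyltransferase of the Polycomb complex, was at 70.8 to 601 CPM in IPC and had 10 counts in 3 of 7 Pdgfra cells. Hmgn2 and Hmgb2 have near-identical copies in the genome, so their counts are uncertain. Without the cells of both groups that had at least 20 mitosis genes, the median difference of the list was -1.78, beside -1.24 with them. IPC cells with many replication genes, such as I3 and I7, stayed in, so a part of the cell cycle in this difference was not tested.

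Of 40 measured ribosomal protein genes 8 were called higher in IPC and 0 in the Pdgfra cells, with a median of -1.48, and of 33 splicing genes 5 and 0, with a median of -1.30. Rps24 was at 54.5 to 445 CPM (median 225) in IPC and at 0 to 203 (median 37.1) in the Pdgfra cells. Ribosomal protein genes also have many copies, which makes single values uncertain.

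Glycolysis and lysosome genes leaned towards the Pdgfra cells. Of 19 measured glycolysis genes 7 were called higher in the Pdgfra cells and 0 in IPC (median 1.82), and of 28 lysosome genes 10 and 1 (median 1.85). Pfkp, a phosphofructokinase, was at 131 to 435 CPM (median 246) in the Pdgfra cells, with 10 counts in 1 of 11 IPC cells. Laptm4b, a lysosomal membrane protein, was separated, at 265.2 to 1005 CPM against 0 to 265.1 CPM. Of 24 cholesterol synthesis genes 4 were called higher in IPC and 1 in the Pdgfra cells. The median of this list was -0.77 over both ages, but -1.42 at 2 months and 0.79 at 4.5 months. Cyp51, a lanosterol demethylase, had 10 counts in 8 of 11 IPC cells and 1 of 7 Pdgfra cells, a difference of -4.58. Dhcr7, an enzyme of the last steps of cholesterol synthesis, had a difference of 3.72.

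Differences at each age rest on 4 against 5 cells at 2 months and 3 against 6 at 4.5 months. The 156 named genes that were called have the same sign at both ages because the rule asked for it, so this gives no independent support. Pdgfra differed by 10.21 at 2 months and 9.68 at 4.5 months, Olig1 by 12.16 and 10.37, Eomes by -3.28 and -6.29 and Sox11 by -4.40 and -6.22. The median of the OPC list was 7.67 and 7.39, and that of the neuronal IPC list -4.02 and -4.77. The medians of the division lists lay further apart, at -0.57 and -3.28 for replication and -1.32 and -4.04 for mitosis. Both dividing Pdgfra cells were of 2 months. Ier2, an immediate early gene that was not called and was picked after its values were seen, was at -6.02 and 1.05. No difference between the ages was tested.

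**Figure D5:**
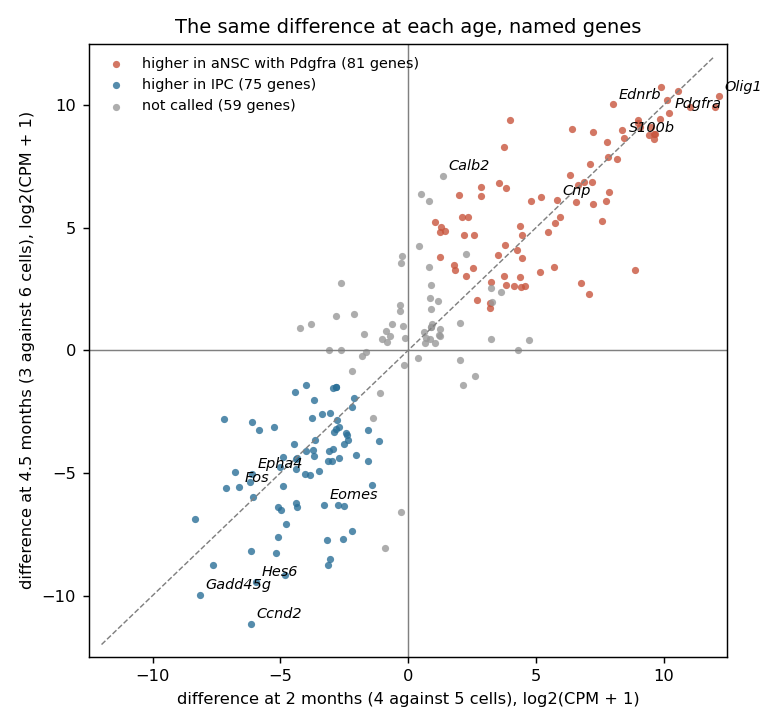
Difference in mean log2(CPM + 1) at 2 months (x axis) and at 4.5 months (y axis) of the 215 measured named genes, 81 called higher in the Pdgfra cells (red), 75 higher in IPC (blue) and 59 not called (grey), with the diagonal dashed. Pdgfra and Olig1 lie near the diagonal at the upper right, while Ccnd2 differs more at 4.5 months.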

How the data were processed

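The authors deposited a table of expected counts per gene and cell, a table of TPM (transcripts per 1000000) and a table of classes. STAR, RSEM and the genome build mm10 are named in the submitters' processing notes. How classes were assigned is not given in the sources used here. Deposited counts were rounded to whole numbers (4.44% of those above 0 were not whole) and scaled to CPM with a pseudocount of 1. Markers count as present from 10 counts. Folds against a group without reads use a floor of 3 counts over the group, and intervals are exact with 95% confidence. Since reads were not tagged by molecule, they do not count molecules independently, and both cover counting error only.

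Named genes were the members of marker lists, the 5 largest absolute differences of other lists, the 15 largest called differences each way (without predicted genes, pseudogenes, clones, Xist, Tsix and Y-linked genes) and Pdgfra, Olig1, Eomes and Sox11. The members and lists were chosen with earlier results of these data known. Positions are GENCODE on mm10, for 231 of 234 named genes, of which 38 share exon sequence with another gene. Python 3.11.15, pandas 2.3.3, scipy 1.17.1 and edgeR 4.0.16 (TMM alternative) were used, and the steps were tested on simulated data. Alternatives varied the pseudocount, unit, filter, depth, scaling, IPC cells, age and single cells. Leaving out the dividing cells, I10, I3 or each IPC cell in turn was chosen after seeing the data. Some genes of the lists are counted but not reported here by name.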

Additional observations from a re-analysis of the deposited data

Results flagged for a closer look

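Each of 25 measures was examined in the 7 Pdgfra cells for a cell far from the others, which is a gap to the nearest cell that takes more of the whole range than Dixon's 95% critical value. Chance alone flags about 1 in 20 groups. P1 stood apart with 12 myelin genes at 10 or more counts, while the next highest cell had 7. After thinning it had 7 and the next highest cells 6. P7 stood apart with 11 genes of the ERK targets and feedback list at 10 or more counts, while the next highest cell had 8. P7 was also the deepest of the 7 cells, and after thinning to equal depth it had 8, as did P6, so it no longer stood apart. P1 was the lowest cell in Ramp1, at 7.67 on the log2(CPM + 1) scale and the gap took 0.766 of the range.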

How the results depend on the processing

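No paired analysis was possible because the numbers in the sample titles only name cells, no label ties cells of the groups to each other and no test was run. All 156 named called genes kept their direction under the 31 alternatives (17 planned, 14 added after seeing the data). Some alternatives could not change it. A changed filter leaves the difference of a gene as it was, and the calling rule fixed the sign at each age. The runs without I10 and without I3 each appear again under another name, so the 31 are not all distinct. For the 156 genes, with these repeats included, 41 values moved by more than the spread over cells and 4795 did not. Genes called higher in the Pdgfra cells and in IPC numbered 526 and 277 with a pseudocount of 10, 1832 and 1419 at 2 months alone, and 2263 and 1756 at 4.5 months alone. Genes without overlap numbered 251 and 74 at 2 months, 284 and 125 at 4.5 months, and 129 and 47 without dividing cells. The measured genes in these settings numbered 11680, 9504 and 10289. Smaller groups separate more easily than 7 against 11 cells, so these counts are not comparable with those of all cells. Genes without overlap that were higher in IPC numbered 34 against Eomes cells alone. With single cells left out they numbered 10 to 16, the highest without P2 or without I1. The share of calls higher in the Pdgfra cells was 58.4%, 49.5% after centring on the median and 65.5% with a pseudocount of 10.

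List medians moved as follows. With a pseudocount of 10 they were 4.68 for OPC, 1.37 for committed precursors, -2.55 for neuronal IPC, 0.77 for ERK, 2.65 for proteoglycans and 1.34 for receptors and channels. With TPM the last 2 were 3.54 and 2.02. With genes read in 50% of cells they were 4.17 for committed precursors, 3.58 for myelin, 0.78 for neuroblasts (a change of sign, with fewer genes), 1.41 for quiescent stem cells, 3.68 for growth factor receptors, 1.13 for SOX, 4.46 for channels and 2.64 for guidance. Without a filter they were 0.23 for PDGF, 1.21 for ERK, -0.56 for homeobox factors, 2.14 for proteoglycans, 2.01 for channels and 0.59 for guidance. Against Eomes cells they were 7.93 for OPC and 2.10 for Notch. At 2 months they were 2.20 for committed precursors, -0.59 for Notch (a change of sign) and 1.65 for SOX. At 4.5 months they were 1.00 for mural, 1.84 for growth factor receptors, 3.09 for proteoglycans, 0.79 for cholesterol (a change of sign) and 0.69 for guidance. Without dividing cells, proteoglycans were at 3.27. The cause was not tested. With 7 and 11 cells and no animal named, the values hold for these cells only.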
